A study of Homo sapiens with 6 samples.

Results

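The subject is a set of 8 human genes of the interferon system, named by symbol: ISG15, OASL, IFIT2 and IFI6, which encode interferon-induced proteins, and IRF7, IRF1, IRF9 and STAT2, which encode transcription factors of the pathway. All 8 are among the 14987 genes of the deposited table, and all 8 passed the filter on low values that left 12263 genes for testing. They were measured by messenger RNA sequencing in HCT116, an established line of human colorectal cancer cells. Each of 6 libraries came from 1 cell line in 1 medium: shYAP1, shYAP3 and NC cells deprived of glucose for 6 h, and the same 3 lines in control medium. shYAP1 and shYAP3 carry 2 constructs against YAP, a coactivator of transcription that the Hippo kinases hold back, and the labels call them YAP knockdown. NC cells are labelled wild type and have 1 library per medium. The series asked how YAP contributes to expression induced by glucose deprivation.

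Interferons are secreted proteins with which cells warn each other of infection. Type I interferon binds the receptor chains IFNAR1 and IFNAR2, the kinases JAK1 and TYK2 phosphorylate STAT proteins, STAT2 among them, and STAT2 and IRF9 act within a complex named ISGF3. ISGF3 binds a DNA element called the ISRE in front of interferon-stimulated genes, and many of the proteins they encode restrain viruses. Interferon gamma acts instead through an element called GAS. Low levels of many of these genes are kept in uninfected epithelial cells.

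Promoter sequences are shown for 3 of the genes because they carry the elements by which the pathway reads its targets. RefSeq windows of 300 bases (build GRCh38.p14), from 250 bases before to 50 bases after the annotated gene start, were matched for 5 of the 8 genes: ISG15, IFI6, IRF1, IRF9 and STAT2. They are written 5′ to 3′ on the gene's own strand, and capitals mark matches to the ISRE or GAS letters. ISG15 lies on the plus strand (chr1:1013247-1013546), and IFI6 (chr1:27672143-27672442) and IRF1 (chr5:132490724-132491023) lie on the minus strand.
ISG15: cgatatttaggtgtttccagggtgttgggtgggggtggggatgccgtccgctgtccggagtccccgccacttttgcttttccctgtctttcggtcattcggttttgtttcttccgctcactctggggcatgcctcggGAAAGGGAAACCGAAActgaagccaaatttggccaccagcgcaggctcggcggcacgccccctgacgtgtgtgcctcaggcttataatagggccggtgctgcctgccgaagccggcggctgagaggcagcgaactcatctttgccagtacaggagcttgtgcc
IFI6: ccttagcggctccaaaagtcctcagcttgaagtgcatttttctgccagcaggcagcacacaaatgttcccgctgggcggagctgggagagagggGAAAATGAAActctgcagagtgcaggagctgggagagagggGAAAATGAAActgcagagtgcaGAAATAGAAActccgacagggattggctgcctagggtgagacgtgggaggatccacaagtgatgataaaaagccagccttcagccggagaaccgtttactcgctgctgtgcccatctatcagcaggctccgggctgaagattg
IRF1: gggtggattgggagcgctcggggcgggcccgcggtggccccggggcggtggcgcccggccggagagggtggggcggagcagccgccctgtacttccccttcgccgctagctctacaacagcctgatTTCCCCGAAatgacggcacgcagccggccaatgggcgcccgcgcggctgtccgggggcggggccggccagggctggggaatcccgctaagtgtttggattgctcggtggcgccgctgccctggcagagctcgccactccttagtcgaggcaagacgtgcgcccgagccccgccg

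The ISRE was searched as GAAANNGAAA, the GAS element as TTCNNNGAA, the element bound by the stress factor ATF4 as TGATGNAA and the element bound by the TEAD partners of YAP as GGAATG, each on both strands. Counted with the annotated start as position 0, the ISG15 window holds 2 ISRE matches that overlap, from −113 to −104 and from −107 to −98. The IFI6 window holds 3, from −156 to −147, −115 to −106 and −93 to −84. Neither IRF1, IRF9 nor STAT2 has an ISRE match. IRF1 has a GAS match from −124 to −116 and IRF9 one from −63 to −55. GGAATG occurs once in the windows of IRF9 and STAT2, and TGATGNAA in none of the 5. Of 35116 promoter windows of the same length, 3.57% hold the ISRE letters, 7.66% the GAS letters, 3.62% the ATF4 letters and 14.0% the TEAD letters. A match describes the letters only and shows no binding in these cells.

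**Figure D1:**
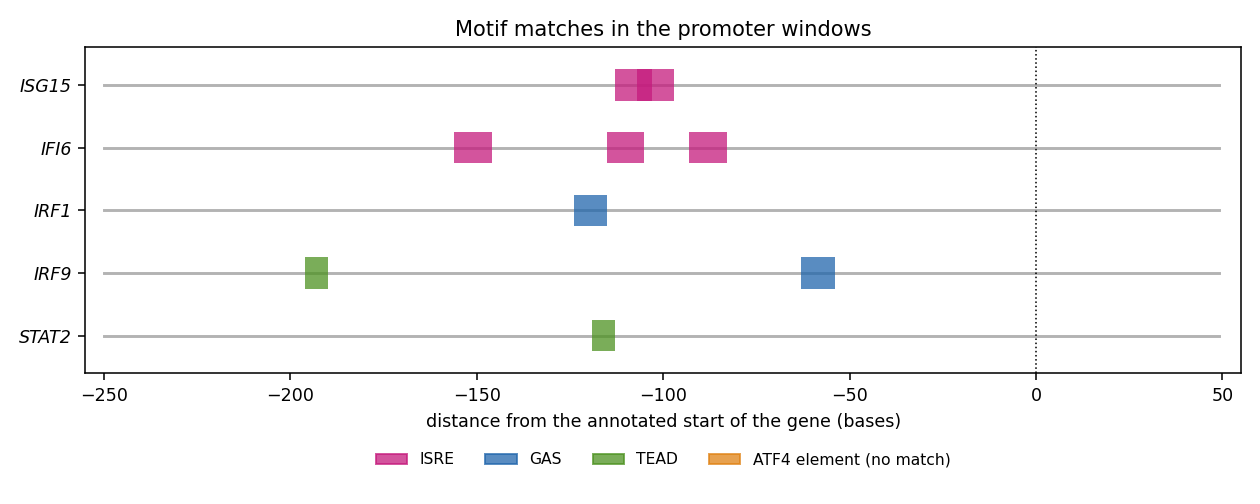
Positions of motif matches in the promoter windows of 5 genes, in bases from the annotated gene start (dotted line at 0). Pink boxes are ISRE, blue boxes GAS and green boxes TEAD matches; the pink boxes stand in ISG15 (2, overlapping) and IFI6 (3), and the ATF4 element has no match.

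The libraries held 16912634 to 22161075 listed reads, and 1 read was worth 0.0406 to 0.0693 in deposited units. YAP1, the target of the knockdown, had values of 20.3 and 18.2 in deprived and 35.7 and 38.2 in control shYAP1 and shYAP3 cells, against 154 in deprived and 188 in control NC cells. All 7 markers of colorectal epithelium passed the filter. Of 6 leukocyte markers, the 4 that are listed summed to 0.372 to 0.704 per library, and of 3 endothelial markers 1 is listed, at 0.208 to 0.974. The 2 listed of 4 fibroblast markers summed to 2.98 to 6.17 in deprived and 8.09 to 10.3 in control libraries; their part in the results was not tested. By transcript length the media differed, and the library of deprived shYAP3 cells lay furthest out. Median deviations from each gene's mean (log2) were taken over the shortest and the longest 10% of transcripts. Among the shortest, control libraries lay between −0.19 and −0.15, and deprived ones higher, at 0.44 (shYAP3), 0.14 (shYAP1) and −0.07 (NC). Among the longest, control libraries lay between 0.10 and 0.12, and deprived ones lower, at −0.29 (shYAP3), −0.08 (shYAP1) and 0.05 (NC). Length thus varied with medium, and of the deprived libraries that of NC cells lay nearest the controls. The labels name no replicate cultures, so that p-values measure only the spread between these libraries, and NC cells were assumed to vary as shYAP cells did. In bulk RNA, fewer cells with a transcript and less transcript per cell cannot be told apart.

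Deposited values compare a gene between libraries. Divided by the length of each gene's longest transcript, they rank the genes among themselves. Per kilobase, ISG15 was highest, with a mean of 224 over the deprived and 84.0 over the control libraries. IFI6 followed with 11.3 and 9.06, and STAT2 with 4.76 and 5.55. In deprived libraries STAT2, IRF7 (4.47) and IRF9 (4.02) overlapped in range, as did OASL (2.33) with IRF1 (1.31) and with IRF9, while IFIT2 (0.412) stayed below all of them. In control libraries IRF9 (2.98) stood above IRF1 (2.03) and IRF7 (1.88), which overlapped, and OASL (0.660) overlapped with IFIT2 (0.443). The longest transcript need not be the one expressed.

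Glucose deprivation raised ISG15, OASL and IRF7 and lowered IRF1, while IFIT2, IFI6, IRF9 and STAT2 did not pass. ISG15 rose 2.51-fold, OASL 2.48-fold and IRF7 2.11-fold over the 3 lines, and IRF1 fell to 0.671 of its control level. Thus 3 of 8 genes were called higher, where 16.5% of all tested genes were, and 1 of 8 lower, where 15.6% were. The genes were chosen with earlier results of these data known, so that the shares here are no test of the set. In 4 of 8 genes all deprived values lay above all control values, against 26.8% of tested genes, and in 1 of 8 all lay below, against 23.8%. The median log2 fold change of the 8 genes was 0.33, and that of all tested genes 0.05. Scaled to listed reads, the median over all genes moved to −0.24 and the calls to 749 higher and 3802 lower, against 2018 and 1918 as deposited. ISG15 (1.02), OASL (1.07), IRF7 (0.82) and IRF1 (−0.85) then kept their directions and passed. All fold changes were computed from log2(value + 1), so that those of genes with low values are understated.

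ISG15 (ENSG00000187608) encodes a small protein with 2 ubiquitin-like domains that is attached to other proteins and is also secreted. Its deposited value was 214 in shYAP1, 216 in shYAP3 and 101 in NC cells after deprivation, against 67.3, 70.5 and 60.5 in the same lines in control medium. The control values lay close together, and each deprived value lay above them, with the NC library the lowest of the deprived. The values rest on 1891 to 3679 reads in deprived and 1375 to 1658 in control libraries. The log2 response of ISG15 was 1.33 (SE 0.19, limma adjusted p = 0.0021), higher in 3 of 3 lines. With transcript length and GC content trends removed the log2 fold change was 1.03 (limma adjusted p = 0.00036), and its longest transcript has 787 bases.

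OASL (ENSG00000135114), a relative of the 2′-5′ oligoadenylate synthetases without their enzymatic activity, enhances signalling by the RNA sensor RIG-I. It stood at 8.02 in shYAP1, 11.8 in shYAP3 and 3.03 in NC cells after deprivation, against 2.11, 2.68 and 1.67 in control medium. The groups did not overlap, but the deprived NC value was close to the highest control value. OASL was counted with 38 to 170 reads, and its log2 fold change was 1.31 (SE 0.25, limma adjusted p = 0.0064), higher in 3 of 3 lines.

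IFIT2 (ENSG00000119922), which binds viral RNA and promotes cell death, was the lowest of the genes, with 12 to 52 reads per library. Its value was 1.16 in shYAP1, 2.77 in shYAP3 and 0.639 in NC cells after deprivation, against 1.5, 2.36 and 1.06 in control medium. The media overlapped, and shYAP3 cells were highest in both. Its log2 fold change was −0.12 (SE 0.23, 95% interval −0.65 to 0.41, limma adjusted p = 0.70). In the annotation its span overlaps that of LIPA on the opposite strand. Whether their exons overlap was not examined. Where they do, reads of the pair cannot be told apart without a stated strand setting.

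IFI6 (ENSG00000126709), a mitochondrial and reticulum membrane protein that delays apoptosis, stood at 9.35 in shYAP1, 9.70 in shYAP3 and 9.52 in NC cells after deprivation, against 6.09, 8.5 and 8.27 in control medium. All 3 deprived values lay above the control values, within a narrow band. The log2 fold change was 0.30 (SE 0.16, 95% interval −0.07 to 0.67, limma adjusted p = 0.18) and did not pass. With transcript length and GC content trends removed it was −0.01, and the longest transcript of IFI6 has 841 bases. Its promoter window holds 3 ISRE matches and that of ISG15 holds 2, and their part in the response was not tested.

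Among the factors, IRF7 (ENSG00000185507), the regulator of interferon alpha genes that is itself induced by interferon, stood at 10.9 in shYAP1, 8.80 in shYAP3 and 7.82 in NC cells after deprivation. In control medium it stood at 4.83, 3.91 and 2.82 in the same order. Every line was more than 2-fold higher after deprivation, with ratios of deprived to control of 2.25, 2.25 and 2.78. The log2 fold change was 1.08 (SE 0.16, limma adjusted p = 0.0026), from 64 to 187 reads per library.

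IRF1 (ENSG00000125347), a tumour suppressor and the main interferon gamma-induced factor of the family, was the 1 gene that fell. It stood at 7.67 in shYAP1, 5.27 in shYAP3 and 7.29 in NC cells after deprivation, against 10.7, 9.36 and 11.3 in control medium. The media did not overlap, and shYAP3 cells were lowest in each. The log2 fold change was −0.58 (SE 0.17, limma adjusted p = 0.030), lower in 3 of 3 lines. IRF1 did not pass with no filter (limma adjusted p = 0.055), with length and GC content trends removed (log2 −0.32, adjusted p = 0.073), or without the NC control (0.118), shYAP1 control (0.147), shYAP3 control (0.098) or NC deprived library (0.118). C5orf56, which is listed in the table, and AC116366.3, a protein-coding gene that is not, lie antisense to it in the annotation.

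IRF9 (ENSG00000213928) and STAT2 (ENSG00000170581), which are subunits of ISGF3, did not pass. IRF9 stood at 7.32 in shYAP1, 9.22 in shYAP3 and 5.64 in NC cells after deprivation, against 5.48, 6.32 and 4.62 in control medium. It was higher in 3 of 3 lines, with overlapping media (log2 0.36, SE 0.16, 95% interval 0.00 to 0.72, limma adjusted p = 0.11). In the annotation the span of IRF9 overlaps that of AL136295.5, a protein-coding gene on the same strand that is not listed. Whether their exons overlap was not examined. STAT2 stood at 16.6 in shYAP1, 12.8 in shYAP3 and 17.5 in NC cells after deprivation, against 18.2, 19.3 and 17.1 in control medium. Its media overlapped, and the deprived shYAP3 library was the lowest (log2 −0.22, SE 0.16, 95% interval −0.58 to 0.14, limma adjusted p = 0.31).

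**Figure D2:**
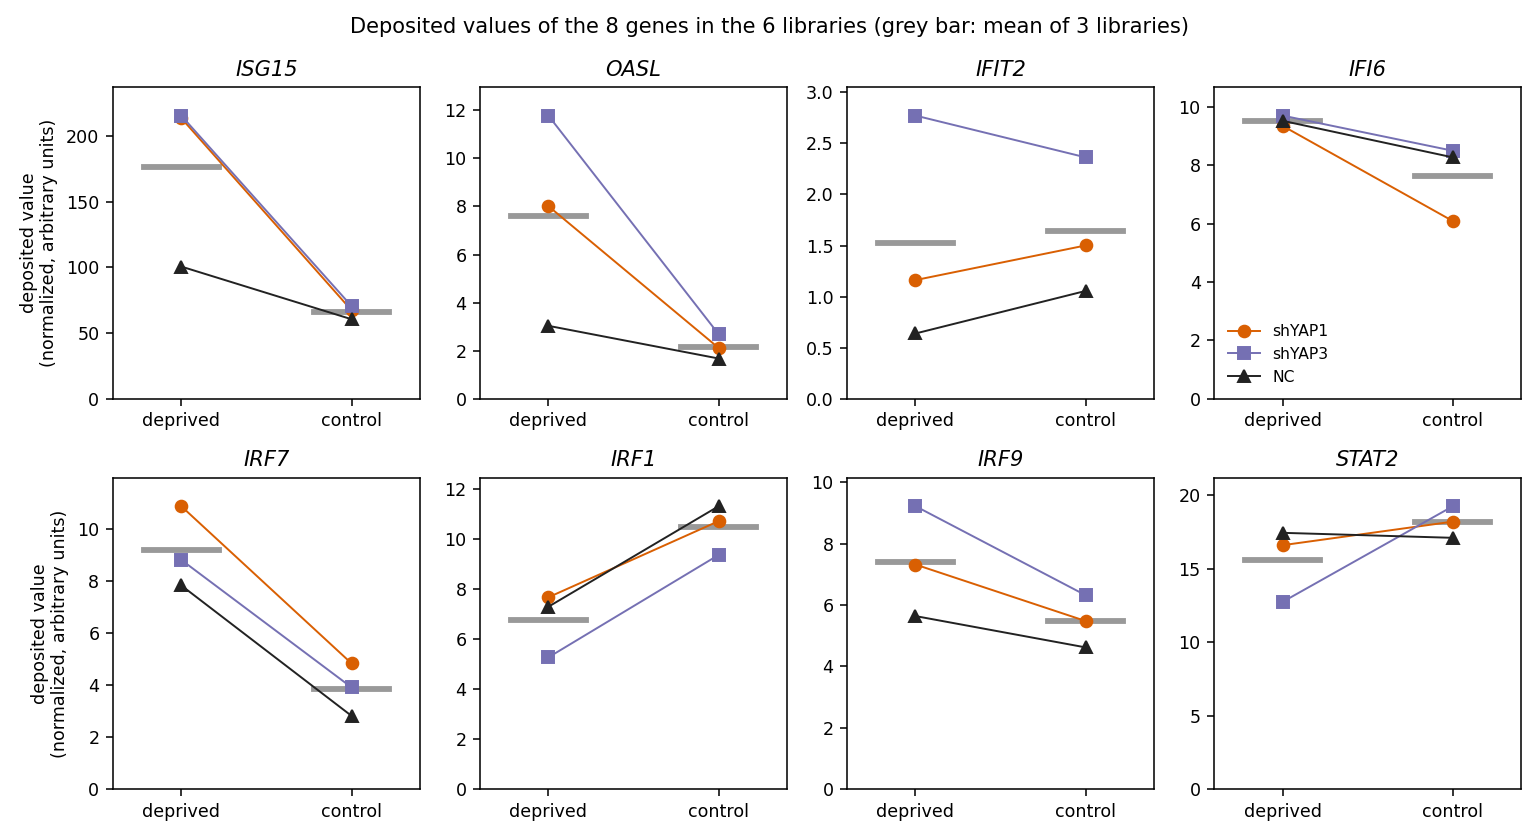
Deposited values of the 8 genes (vertical axis, arbitrary units, from 0) in deprived and control libraries, 1 point per library joined by line: orange circles shYAP1, violet squares shYAP3, black triangles NC; grey bars are means of 3 libraries. ISG15, OASL, IRF7 and IFI6 lie higher and IRF1 lower in every deprived library than in any control library.

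**Figure D3:**
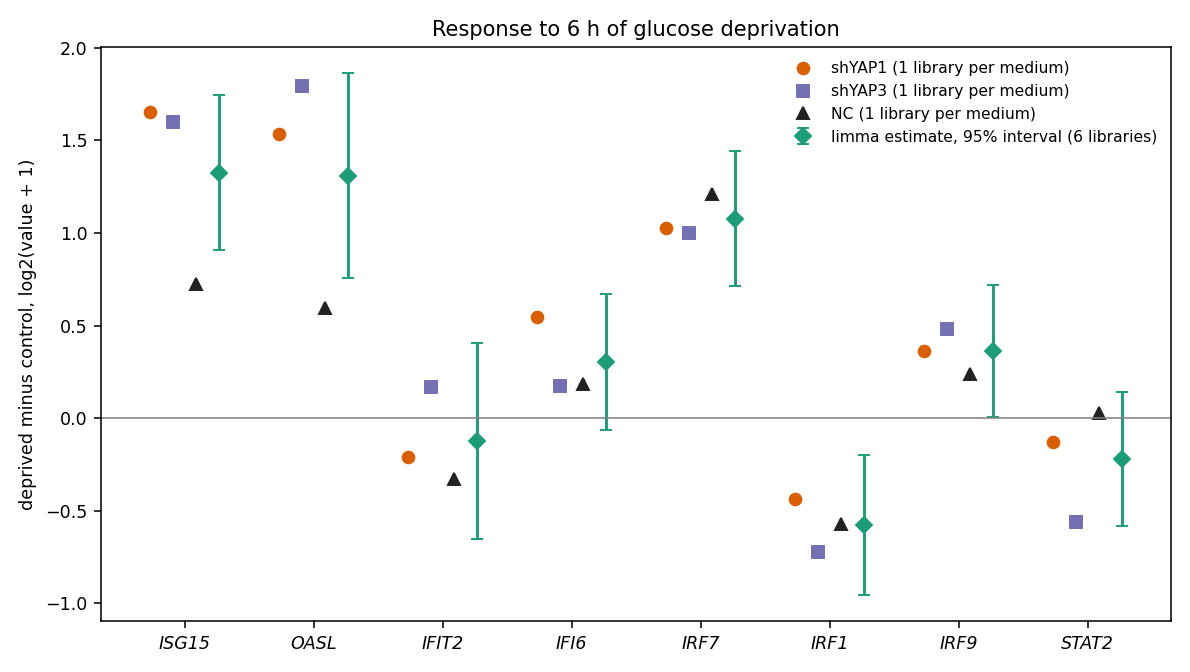
Difference of log2(value + 1) between deprived and control libraries for each line (orange shYAP1, violet shYAP3, black NC), and the limma estimate over all 6 libraries with its 95% interval (green). The intervals of ISG15, OASL, IRF7 and, barely, IRF9 lie above 0 and that of IRF1 below 0. ISG15, OASL, IFIT2 and IRF9 have their lowest points in NC cells.

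Across the YAP knockdown no gene of the set passed, although 5 of the 8 were higher in both shYAP lines than in NC cells in each medium. These were ISG15, OASL, IFIT2, IRF7 and IRF9, and 16.4% of all tested genes met the same rule. As the genes were chosen with earlier results of these data known, that share is no test of the set. In control medium the ratio of shYAP1 and shYAP3 to NC cells was 1.1 and 1.2 for ISG15 and 1.26 and 1.60 for OASL. After deprivation it was 2.12 and 2.14 for ISG15 and 2.64 and 3.89 for OASL. IFIT2 had ratios of 1.42 and 2.24 in control medium and of 1.82 and 4.34 after deprivation, from as few as 12 reads in NC cells.

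Over both media the log2 fold change of shYAP over NC cells was 0.63 for ISG15 (SE 0.20, 95% interval 0.19 to 1.08, limma adjusted p = 0.58). For OASL it was 0.88 (95% interval 0.29 to 1.46), for IFIT2 0.65 (0.09 to 1.21), for IRF7 0.39 (0.00 to 0.77) and for IRF9 0.38 (0.01 to 0.76), each at limma adjusted p = 0.58. IFI6 had −0.09 (−0.48 to 0.30), STAT2 −0.06 (−0.44 to 0.32) and IRF1 −0.16 (−0.57 to 0.24), with limma adjusted p from 0.71 to 0.90. By limma 0 of 8 genes passed and 5 had an unadjusted p under 0.05, as did 898 of 12263 genes. The share of all genes called was 0.00815%, which is YAP1 alone. Without the deprived NC library, which leaves the comparison in control medium, the estimate was 0.18 for ISG15 and 0.34 for OASL. Without the NC control library it was 1.09 and 1.41.

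The response itself was compared between shYAP and NC cells, which is the YAP dependence the series asked about. The ratio of deprived to control values of ISG15 was 3.18 in shYAP1 and 3.06 in shYAP3 cells, against 1.66 in NC cells. OASL had ratios of 3.80 in shYAP1 and 4.4 in shYAP3, against 1.81 in NC cells. IFIT2, with few reads, had ratios of 0.774 in shYAP1 and 1.2 in shYAP3, against 0.605 in NC cells. For IRF7 the ratio was 2.25 in both shYAP lines, against 2.78 in NC cells, and for IRF1 it was 0.716 in shYAP1 and 0.563 in shYAP3, against 0.645 in NC cells. STAT2 had 0.912 in shYAP1 and 0.662 in shYAP3, against 1.02 in NC cells. IRF9 had 1.34 in shYAP1 and 1.46 in shYAP3, against 1.22 in NC cells, and IFI6 had 1.54 in shYAP1 and 1.14 in shYAP3, against 1.15 in NC cells.

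None of these differences passed. The log2 response of ISG15 was 0.90 higher in shYAP than in NC cells (SE 0.28, 95% interval 0.23 to 1.57, limma unadjusted p = 0.015, adjusted p = 1.0). That of OASL was 1.07 higher (SE 0.42, 95% interval 0.08 to 2.06, limma unadjusted p = 0.037, adjusted p = 1.0). For the other 6 genes the estimate lay between −0.37 (STAT2) and 0.31 (IFIT2), with intervals that reached from −1.20 to 1.57. By limma 0 of 8 genes and 0.0% of all genes passed, 2 of 8 and 111 of 12263 had an unadjusted p under 0.05, and over all genes edgeR called 0, DESeq2 1 and limma with the cell line as a replicate block 4. With length and GC content trends removed the difference was 0.48 for ISG15 and 1.07 for OASL. Without the deprived shYAP1 library ISG15 and OASL passed (limma adjusted p = 6.1e-05 and 0.0015), where 2735 of 12263 genes did, and without the deprived shYAP3 library ISG15 passed (0.00038), where 269 did. Those fits take their spread from the 2 control shYAP libraries alone and assume that each lone library varies as they do.

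**Figure D4:**
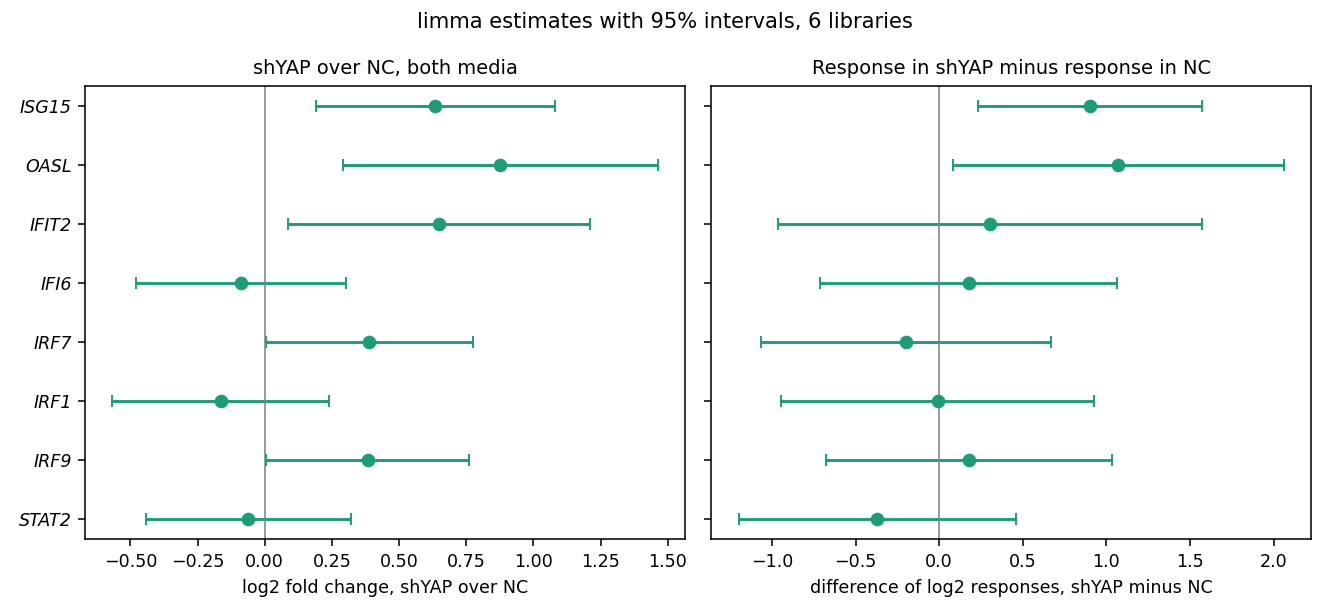
limma log2 estimates (horizontal axes) with 95% intervals for the 8 genes. Left, shYAP over NC cells across both media; right, the response to deprivation in shYAP cells minus that in NC cells. The intervals of ISG15 and OASL lie above 0 in both panels. Those of IFIT2 and, barely, IRF7 and IRF9 lie above 0 on the left and include 0 on the right. The estimates of IFIT2 and IRF9 lie above 0 in both panels. No gene passed after adjustment over all genes.

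The 2 knockdown lines were set against each other to show how far the constructs differed. By shYAP3 over shYAP1, IFIT2 differed by 0.62 on the log2 scale (SE 0.21, 95% interval 0.15 to 1.08, limma unadjusted p = 0.013, adjusted p = 0.68), higher in both media. For ISG15 it was 0.04 (−0.46 to 0.54). The remaining genes lay between −0.32 (IRF1) and 0.37 (OASL), and the intervals of these 6, and that of ISG15, included 0. By limma 0 of 8 and 0.0% of all genes passed; 1 of 8 and 843 of 12263 genes had an unadjusted p under 0.05, and edgeR called 0 and DESeq2 1 over all genes. Without the control shYAP3 library OASL (log2 0.74) and IFIT2 (0.83) passed (limma adjusted p = 0.012 and 0.015). That fit has 1 residual degree of freedom and called 3816 of 12263 genes, so that the 2 members are no result about the set.

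The paralogs of IFIT2 and OASL, chosen after their values were seen, had no common direction. IFIT1 stood at 1.34 in shYAP1, 4.92 in shYAP3 and 1.92 in NC cells after deprivation, against 1.87, 3.36 and 2.02 in control medium, so that shYAP3 cells were highest in both media as for IFIT2. IFIT5 ranged from 24.9 to 46.2 and IFIT3 from 0.851 to 2.43, and both were highest in deprived shYAP3 cells. In the response IFIT1 had a log2 fold change of 0.03, IFIT3 of 0.21 and IFIT5 of 0.02 (limma adjusted p = 0.95, 0.53 and 0.96). OAS3, an active synthetase, stood at 63.2 in shYAP1, 33.4 in shYAP3 and 60.8 in NC cells after deprivation, against 59.9, 72.2 and 73.8 in control medium (log2 −0.43, limma adjusted p = 0.16).

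Many classical interferon-stimulated genes had few reads in these cells. Of 62 further interferon-stimulated effectors 54 are listed and 38 passed the filter. MX1, an antiviral GTPase, had at most 11 reads in a library, OAS1 at most 6, OAS2 and MX2 at most 2, IFI44 at most 7 and GBP1 at most 4. BST2, which tethers virions, had up to 24 and IFI27 up to 25. IFITM1, CMPK2, EPSTI1, PARP10, TRIM22, GBP2, GBP3 and APOL6 stayed below the filter too, with 7 to 24 reads in their highest library. RSAD2, IFI44L, XAF1, SAMD9L, RTP4, CXCL10, CXCL11 and APOL1 were not analysed here.

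Of the 38 effectors tested 3 rose and 6 fell, where 16.5% of all genes rose and 15.6% fell, with a median log2 fold change of 0.11. Values of the list genes, here and below, are not corrected for transcript length. ISG20, an RNA exonuclease, rose to 5.58 in shYAP1, 5.96 in shYAP3 and 5.85 in NC cells, against 2.80, 3.68 and 2.90 in control medium (log2 0.73, limma adjusted p = 0.011). IFI27L1, a mitochondrial relative of IFI27, rose too (0.65, adjusted p = 0.014). ZC3HAV1, the zinc-finger antiviral protein that binds CpG-rich RNA, fell to 23.3 in shYAP1, 16.8 in shYAP3 and 25.3 in NC cells, against 45.6, 48.5 and 49 in control medium (log2 −1.11, limma adjusted p = 0.0022). APOL2 (−1.14), TRIM14 (−0.82), an adaptor of MAVS, and DTX3L (−0.72), a ubiquitin ligase, fell as well, with limma adjusted p from 0.0020 to 0.023. SP100, a protein of nuclear bodies, was the third to rise (0.64), and EIF2AK2, the RNA-sensing kinase PKR (−0.40), and IFI30, a lysosomal thiol reductase (−0.46), completed those that fell; these last 3 were named after their values were seen.

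Upstream of these genes, of 11 receptors, kinases and STATs 1 rose and 1 fell: IFNGR1, a chain of the interferon gamma receptor, rose (log2 0.81, limma adjusted p = 0.0095), and IFNLR1, a chain of the interferon lambda receptor, fell (−0.61, adjusted p = 0.017). By limma, IFNAR1 (−0.22, adjusted p = 0.22), IFNAR2 (−0.18, adjusted p = 0.39) and IL10RB (0.20, adjusted p = 0.38) did not pass. Of 9 tested genes of nucleic acid sensing 0 rose and 2 fell, where 16.5% of all tested genes rose and 15.6% fell. In lists this short, the receptors included, such counts are no result about the list. MAVS, the mitochondrial adaptor of the RNA sensors, fell to 48.1, 37.2 and 55.8 in deprived shYAP1, shYAP3 and NC cells, against 82.6, 82.3 and 93.9 in control medium (log2 −0.88, limma adjusted p = 0.0038). TRAF3, which links MAVS to the kinase TBK1, fell by 0.91 (adjusted p = 0.0055), while DDX58, the RNA sensor RIG-I, had 0.42 (adjusted p = 0.071). TBK1 (0.38), IFIH1, the RNA sensor MDA5 (0.40), and TMEM173, the adaptor STING (0.18), did not pass. DHX58 stayed below the filter, ZBP1 was not analysed here, and MB21D1, the DNA sensor cGAS, and IFI16, another DNA sensor, had at most 1 read in any library.

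Of 7 other interferon regulatory factors and their binding proteins 1 rose, IRF2BP2, a corepressor (log2 0.52, limma adjusted p = 0.048), and 0 fell. Here and for ISG15 conjugation below, the shares of all tested genes were 16.5% higher and 15.6% lower. IRF3, which induces interferon beta without prior interferon signalling, had 0.04 (adjusted p = 0.82), and IRF2, an antagonist of IRF1, −0.31 (adjusted p = 0.14). IRF2BP1 (−0.15) and IRF2BPL (0.13) did not pass, IRF4 had at most 2 reads, and IRF8 was not analysed here. Among 6 tested genes of ISG15 conjugation and removal, HERC5, the ligase that attaches ISG15 in human cells, rose (0.48, limma adjusted p = 0.040) and TRIM25, a ligase that also modifies RIG-I, fell (−0.79, adjusted p = 0.0044). HERC6, a relative of HERC5, had 0.52 (adjusted p = 0.058), ARIH1 0.15 and UBE2L6, the conjugating enzyme, −0.04. USP18, which removes ISG15, had 0.26 (limma adjusted p = 0.23). UBA7, the activating enzyme, stayed below the filter with at most 8 reads, and USP41 was not analysed here.

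Of 14 tested genes of class I antigen presentation 3 rose and 2 fell. B2M, the invariant light chain, stood at 451 in shYAP1, 827 in shYAP3 and 327 in NC cells after deprivation, against 272, 271 and 237 in control medium (log2 0.93, limma adjusted p = 0.019). HLA-B (0.57) and HLA-E (0.60) rose, and TAPBP, the loading factor tapasin (−0.83, adjusted p = 0.010), and NLRC5, the class I transactivator (−0.54, adjusted p = 0.032), fell. PSMB8 stayed below the filter. Of 7 negative regulators 2 rose, the phosphatase PTPN2 (0.58) and PIAS1 (0.47), an inhibitor of STAT signalling, while PTPN6 (0.34), SOCS3 (0.28), SOCS1 (0.21) and PTPN11 (−0.04) did not pass. In all, 11 of 92 tested genes of the 7 lists rose and 12 fell, with a median log2 fold change of 0.12, beside the 16.5% and 15.6% of all genes given above. By longest transcript, genes that fell included MAVS (11714 bases), ZC3HAV1 (7100) and APOL2 (2685). Those that rose included IFI27L1 (828), HLA-B (1547), ISG20 (5634) and PIAS1 (8115). The part of transcript length in these calls was not tested. In the knockdown 0 of these 92 passed in limma, where 9 had an unadjusted p under 0.05, beside 898 of 12263 genes. In each medium 16 of 92 were higher in both shYAP lines than in NC cells, which is near the 16.4% of all genes.

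**Figure D5:**
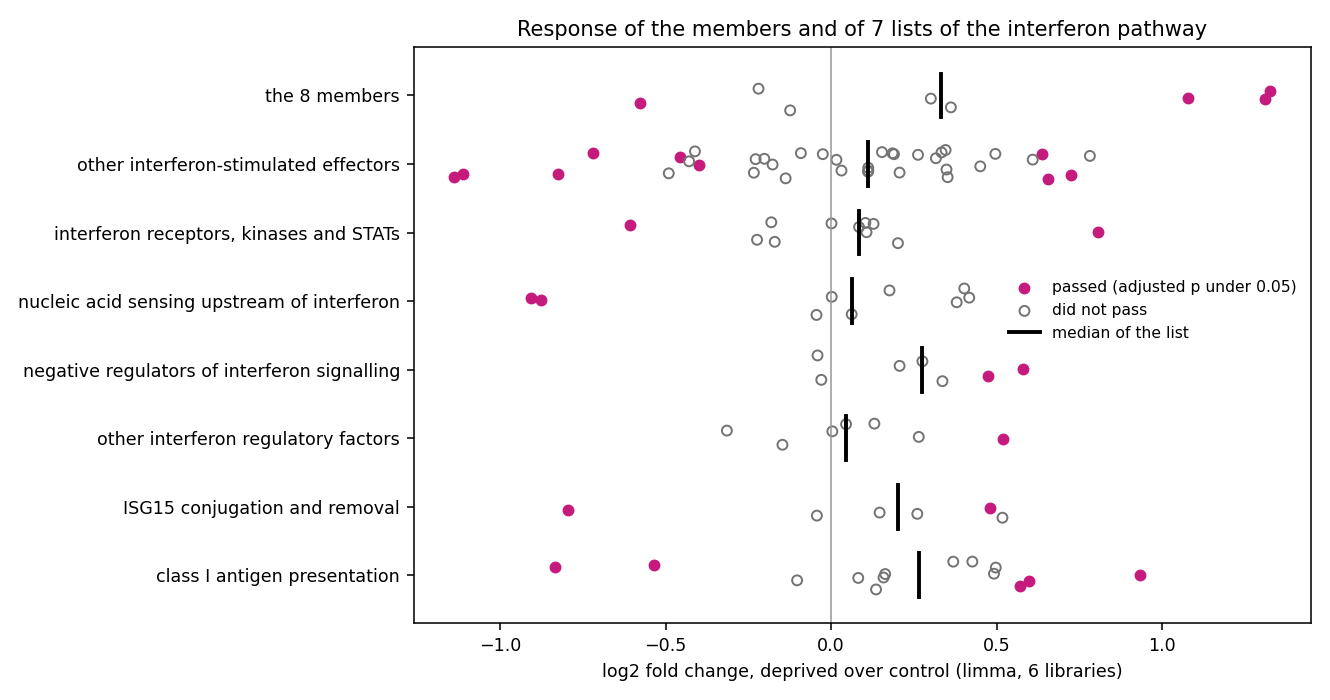
limma log2 fold changes of deprived over control libraries for the 8 members and for the tested genes of 7 pathway lists, 1 point per gene (filled pink, passed at an adjusted p under 0.05; open, did not pass) with the median of each row as a black bar. The 3 members that rose lie to the right of every listed gene, at 1.08 to 1.33, and the lists hold genes on both sides of 0. Members and lists were chosen with earlier results of these data known.

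Over the 6 libraries the members did not share 1 profile. Each gene's log2(value + 1) was correlated (Pearson) with the mean standardised profile of the 8 genes. IRF9 (0.94), OASL (0.94), ISG15 (0.92) and IRF7 (0.80) were close to it, and IFI6 (0.63) and IFIT2 (0.46) less so. IRF1 (−0.81) and STAT2 (−0.58) ran against it. Each member is itself part of that mean, which raises its own correlation. Outside the set, LNX1 (0.98), CNOT8 (0.98), NCKAP1L (0.97), LAMA3 (0.97) and ACOT11 (0.96) were the 5 most like genes. LAMA3, a laminin chain, stood at 20.8 in shYAP1, 22.5 in shYAP3 and 14.7 in NC cells after deprivation, against 9.21, 13.6 and 7.74 in control medium. NDUFV1, RELL2 and ZNF653 were most like ISG15 alone (each at 0.99 or above). These correlations span 6 libraries that share media, lines and scaling, and are given as a description.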

How the data were processed

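Polyadenylated RNA of 6 HCT116 libraries was sequenced, 1 per cell line and medium. The deposited table holds a normalised signal per gene, not counts, and the scaling is not described. Every value was a whole multiple of the library's value for 1 read (100% of values, within 0.01 read), so that reads could be recovered. Bowtie2, BWA and hg19 are named, with no role or version, per the submitters' processing notes; the counter, annotation and strand setting are not given in the sources used here. The 12263 of 14987 genes that reached a value of 1 in 2 or more libraries were tested on log2(value + 1) with limma 3.58.1 (R 4.3.3), trended variance and Benjamini-Hochberg adjustment over all genes at 0.05. An additive fit on genotype and medium gave the response and the knockdown, a fit with 1 mean for each combination gave the difference of the response, and a fit on line and medium gave the contrast of shYAP3 with shYAP1. edgeR 4.0.16 and DESeq2 1.42.0 on the recovered reads were alternatives, and the fits were tested on simulated data. Transcript length and GC content came from GENCODE v29, for 98.0% of genes.

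The lines shYAP1 and shYAP3 appear in both media, which pairs their libraries by the labels; their deviations from the group means correlated at 0.10 between media over 12263 genes. Named were the 8 members, up to 6 genes of each of 7 pathway lists by smallest p in the response, list genes below the filter or not analysed here, YAP1, and the genes most like the members; some list genes are not reported here. The members, lists and motifs were chosen with earlier results of these data known.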

Additional observations from a re-analysis of the deposited data

Results flagged for a closer look

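The deprived and control values of STAT2 lay in opposite orders by genotype, which is why it is given here. After deprivation it was lower in both knockdown lines, at 16.6 against 18.2 in control medium in shYAP1 and at 12.8 against 19.3 in shYAP3 cells, and slightly higher in NC cells, at 17.5 against 17.1. The difference of the log2 response, shYAP minus NC, was −0.37 (95% interval −1.20 to 0.46, limma adjusted p = 1.0) and did not pass. No group held enough libraries to look for outlying ones.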

How the results depend on the processing

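ISG15, OASL and IRF7 passed in the response under all 15 alternatives run. Calls over all genes in the response ranged from 1086 to 5306 when a library was left out (3936 with all 6), with 1412 without NC control, 1150 without shYAP1 control, 1086 without shYAP3 control and 1416 without NC deprived. IFIT2 ranged from −0.38 to 0.077 over those fits, and IFI6 was −0.0094 with length and GC trends removed. In the knockdown DESeq2 called 7 genes, against 1 by limma, and leaving out a library gave 0 to 5. IFI6 then ranged from −0.18 to 0.015 and STAT2 from −0.25 to 0.12, and IRF1 was 0.0031 with length and GC trends removed. For the difference of the response, the replicate block by cell line called 4 genes and DESeq2 1; the block changed no call of a member. Leaving out a library gave 1 to 2735 genes and 0 to 2 members, with IFIT2 from −0.10 to 0.71, IFI6 from −0.035 to 0.39 and IRF1 from −0.24 to 0.22. IRF1 was 0.051 with quantile normalization and 0.00030 in edgeR. With length and GC trends removed IRF1 was 0.12, IFI6 −0.22 and IRF9 −0.015. Between constructs, quantile normalization called 1 gene, scaling to listed reads 2, DESeq2 1 and removal of length and GC trends 3. Leaving out a library called 1 to 3816 genes and 0 to 2 members, with ISG15 from −0.21 to 0.28 and STAT2 from −0.39 to 0.11. ISG15 was −0.0019 with quantile normalization and −0.012 with length and GC trends removed. The cause was not tested. The difference could not be fitted without an NC library, and the knockdown has no block fit, since genotype is fixed within a line. IFIT2, with 12 reads in deprived NC cells, is the member most limited by depth.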
